A study of Mus musculus with 27 samples.

Results

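The nuclear-encoded respiratory chain genes are the genes of the cell nucleus that specify subunits of complexes I, III, IV and V of the mitochondrial inner membrane. They were chosen by symbol alone, with no expression value used other than a minimum count. Of 55487 genes in the E14 count table, 81 protein-coding genes carried a symbol of the Nduf (A, B, C, S or V), Uqcr, Cox4 to Cox8 or Atp5 series. Of these, 75 exceeded 10 counts in 3 or more of the 27 libraries and were kept, out of 16330 genes in all that passed the same filter. They comprised 36 genes of complex I, 8 of complex III, 14 of complex IV and 17 of complex V. The complex was taken from the symbol, so Ndufa4 (median 879 CPM), whose protein is known as a subunit of complex IV, was counted in complex I here. The 6 that fell below the filter were Ndufa6 (counts in 13 libraries, never more than 5), Cox8b (61 counts in 1 library), Cox7b2 (33 counts in 1 library), and Cox6a2, Cox8c and a second identifier of Atp5o, which had no counts.

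Oxidative phosphorylation passes electrons from NADH through complex I and cytochrome c reductase (complex III) to cytochrome c oxidase (complex IV), and the proton gradient that these enzymes build drives ATP synthase (complex V). Each of these enzymes is a mosaic. Mitochondrial DNA encodes a few core subunits, and the nucleus encodes all the others, which are made in the cytosol and imported. Neurons rely heavily on this pathway, and the axons of retinal ganglion cells (RGCs), which carry visual signals through the optic nerve, contain many mitochondria where they run without myelin.

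The study compared the embryonic optic stalk (OS), the bridge between eye and forebrain along which RGC axons grow, between mutants without Smarcc1 (Baf155, a core subunit of BAF chromatin remodelling complexes) and controls. In the mutants, Smarcc1-DCT-cKO, a Dct-Cre driver deleted the floxed Baf155 alleles, and the animals also carried the Z/EG reporter, on a C57Bl6/J background. Controls were littermates without Dct-Cre. Dct-Cre acts in the pigmented lineage and in the stalk, and how many cells of each library had recombined was not measured here. At E14, dorsal OS, ventral OS and the RGC axons inside the stalk were laser-captured from the same embryos, which gave 6 groups: 4 control and 5 mutant libraries for each of the 3 regions. Embryos belonged to batch A (1 control and 3 mutants) or batch B (3 controls and 2 mutants).

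The libraries held 10.9 to 34.0 M counts (M for 1000000), so that 1 read was worth 0.0294 to 0.0917 counts per M counts of the library (CPM). Smarcc1 stood at 75.9 to 289 CPM in control and 2.26 to 107 CPM in mutant dorsal OS, at 75.7 to 198 against 14.7 to 64.4 CPM in ventral OS, and at 50.1 to 242 against 1.86 to 44.9 CPM in axons. Control and mutant libraries overlapped in dorsal OS and did not in the other regions. The log2 fold change, mutant over control, was -1.66 ± 0.99 (SE) in dorsal OS, -2.37 ± 0.53 in ventral OS and -2.46 ± 1.23 in axons, and none passed the adjustment over all genes (adjusted p = 0.9527, 0.9993 and 0.8802, edgeR). The counts cover the whole gene and cannot separate recombined transcripts. The 15 neuronal markers summed to 3974 to 8325 CPM in axon libraries against 346 to 2620 CPM in all others. Nefm, Map1b, Kif1a and Sncg carried this difference. Tubb3 (means of 100 CPM in dorsal controls and 13.5 CPM in control axons), Snap25 (102 and 17.5 CPM) and Isl1 (31.6 and 0.791 CPM) ran the other way, and Pou4f2 and Nefh had counts in only 2 libraries each, so the markers fit the axon label only in part. Genes with counts numbered 9225 to 14118 in axon libraries and 10881 to 16810 in the others. In dorsal OS, the 10 mesenchymal markers summed to 1147 to 11377 CPM in controls and 55.6 to 395 CPM in mutants, and the 9 melanin genes to 43.5 to 5003 against 2989 to 11963 CPM. The 11 stalk and astrocyte progenitor markers summed to 3081 to 5059 CPM in dorsal controls and 1025 to 1976 CPM in dorsal mutants. Axon libraries held 2854 to 8235 CPM of the same progenitor markers, so they were not free of stalk RNA. Dorsal controls and mutants therefore differed in these markers, and in bulk samples such as these fewer cells of a type and less RNA per cell cannot be told apart.

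Promoters of respiratory chain genes are known targets of nuclear respiratory factor 1 (NRF1), of the ETS factor GABP and of YY1. The RefSeq promoter table of the mm10 build held 62 of the 75 genes, each with 250 bases before to 50 bases after the gene's start, and was searched on both strands for the letters GCGCATGC (NRF1), CCGGAAGT (ETS/GABP) and AAGATGGC (YY1). Any of these was present in 22 of the 62 windows (35.5%), against 12.3% of 17491 genes. The NRF1 letters were found in 8 (12.9%, against 3.93% of all genes), the YY1 letters in 10 (16.1%, against 3.57%) and the ETS/GABP letters in 5 (8.1%, against 5.69%). Complex I held 7 of the 10 windows with YY1 letters and complex V the other 3. The 250 bases upstream of 3 genes are shown because the results below turn on these genes: Cox6a1 had the smallest p between dorsal OS and axons, Ndufa1 that between ventral OS and axons of mutants, and Ndufb8 that between genotypes. Capitals mark the NRF1 letters, which overlap on both strands.
Cox6a1, chr5:115348959-115349208, minus strand: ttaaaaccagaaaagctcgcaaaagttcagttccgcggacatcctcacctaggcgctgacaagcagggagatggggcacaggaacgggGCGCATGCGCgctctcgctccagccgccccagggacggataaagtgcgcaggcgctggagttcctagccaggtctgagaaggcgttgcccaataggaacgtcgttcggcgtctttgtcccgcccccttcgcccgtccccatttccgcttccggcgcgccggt
Ndufa1, chrX:37191239-37191488, minus strand: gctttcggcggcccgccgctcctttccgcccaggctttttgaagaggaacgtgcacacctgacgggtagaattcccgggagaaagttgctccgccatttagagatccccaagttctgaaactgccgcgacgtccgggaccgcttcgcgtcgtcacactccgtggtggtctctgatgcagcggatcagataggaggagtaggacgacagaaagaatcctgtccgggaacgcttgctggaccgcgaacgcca
Ndufb8, chr19:44555443-44555692, minus strand: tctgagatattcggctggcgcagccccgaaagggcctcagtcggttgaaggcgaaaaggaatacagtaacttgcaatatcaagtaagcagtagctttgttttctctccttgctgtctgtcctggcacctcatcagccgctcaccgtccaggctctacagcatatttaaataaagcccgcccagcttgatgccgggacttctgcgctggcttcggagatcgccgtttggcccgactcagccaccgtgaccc
In Cox6a1 the letters began 162 bases (plus orientation) and 160 bases (opposite orientation) before the start. None of the 3 motifs lay in the Ndufa1 window. In Ndufb8 none lay upstream, and YY1 letters began 38 bases after the start. Of the other genes called below, Cox8a held ETS/GABP letters 6 bases before and 31 bases after its start and Atp5h held them 39 bases before its start. Cox6b1 and Atp5e held none, and Cox4i1 and Cox6c were not in the promoter table. No one of the motifs was present in all called genes with a window.

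Most subunit genes were abundant and steadily measured. Of the 75, 68 had counts in all 27 libraries and 63 had a median of at least 100 CPM. The SD of log2 CPM within a group had a median of 0.34 over the 75 genes (range 0.20 to 2.08), was under 0.5 for 59 and over 1 for 7. The 7 genes with a library at 0 were Ndufa4l2 (20 libraries), Cox7a1 (18), Cox4i2 (10), Atp5s (4), and Ndufs1, Cox6b2 and Atp5g1 (1 each). Per exonic length, in counts per kb per M counts, the median gene stood at 306 for complex I, 448 for complex III, 329 for complex IV and 224 for complex V.

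On the same per-length scale the highest genes specify small accessory subunits. They were Ndufa2 (1604, a gene that shares over 10% of its exonic bases with another) and Ndufa1 (1345) in complex I, Uqcr11 (1536) and Uqcr10 (1225) in complex III, where Uqcrc2, a core subunit, was lowest (106), Cox6a1 (1707) and Cox6b1 (1637) in complex IV, and Atp5k (550.3) and Atp5h (548) in complex V. The large catalytic subunits ranked lower. Ndufs1, the largest iron-sulphur subunit of complex I, stood at 12.3, Ndufv1, which binds NADH, at 68.6, and Uqcrfs1, the Rieske iron-sulphur protein of complex III, at 224. Atp5a1 and Atp5b, the α and β subunits of the ATP synthase head, stood at 248 and 330.1 per kb, with medians of 778 and 1399 CPM. These libraries were made by PCR amplification of reverse-transcribed RNA, whose coverage along long transcripts was not tested, so that a level per length is a description of these libraries.

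**Figure D1:**
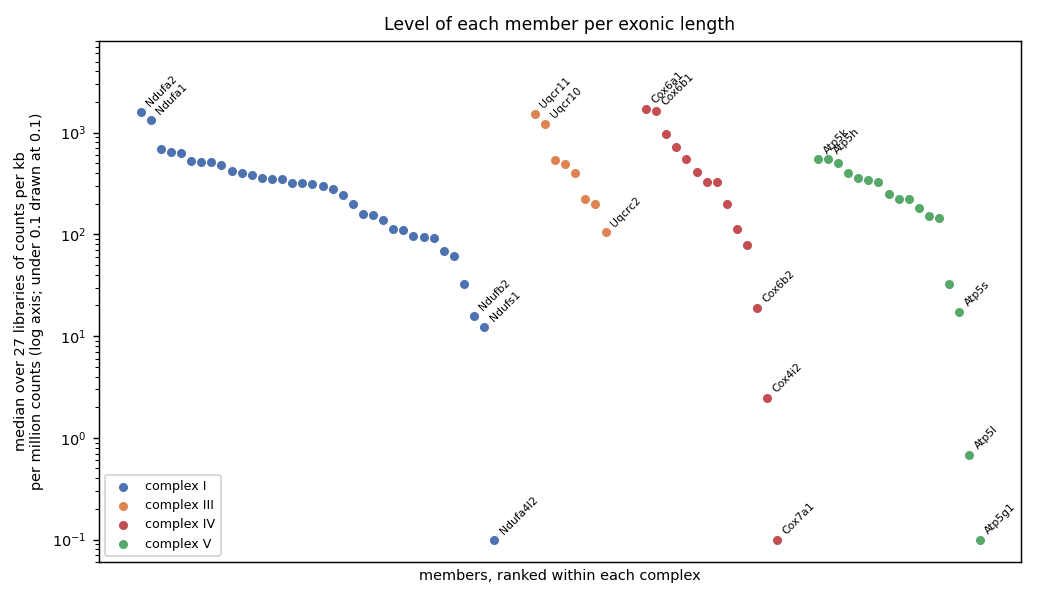
Each point is 1 of the 75 genes, ranked within its complex, and the vertical axis is its median over the 27 libraries in counts per kb of exon per M counts, on a log scale with values under 0.1 drawn at 0.1. The genes span from Ndufa4l2 and Cox7a1 at a median of 0 to Cox6a1 at 1707, and the median gene of each complex lies between 224 and 448.

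The lowest genes included tissue-restricted isoforms and genes with near-identical copies. Atp5g1 and Atp5l stood at medians of 0.15 and 4.40 CPM, and had 1 and 10 copies elsewhere in the genome with at least 95% identity over at least 80% of the transcript. Over the 14 genes with such a copy the median was 388 CPM, against 414 CPM over the 61 without, and over the 9 with a copy at 98% identity it was 166 CPM. Whether reads were lost to copies was not tested. Among genes named below, Atp5h had 4 such copies, Cox6c and Atp5g2 had 2 each and Cox7a2l had 1, and reads may have been split between them. Exonic bases overlapping another gene made up 9.94% of Cox4i1 (with Emc8), 7.01% of Cox6c (with Vps13b) and 4.26% of Ndufb8 (with Gm20538), and reads in those bases cannot be assigned by position alone.

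Several complex IV subunits exist as isoforms that replace each other in the enzyme, and the form found in most tissues prevailed throughout. Cox4i1 made up a median of 99.7% of Cox4 counts, Cox6b1 98.5% of Cox6b counts, and Cox6a1, Cox7b and Cox8a a median of 100% of theirs, while the muscle form Cox6a2 had no counts. Cox7a2 made up 79.1% and Cox7a2l (a supercomplex assembly factor of the same family) 20.9% of Cox7a counts, and the muscle form Cox7a1 had counts in 9 libraries, up to 18.7 CPM. Of the 3 genes for the c subunit of ATP synthase, which give the same mature protein, Atp5g3 made up 87.6%, Atp5g2 12.3% and Atp5g1 0.0368%. Atp5g1, Atp5g2 and Cox7a2l have near-identical copies in the genome and Atp5g3 has 0, and whether this shifted the shares was not tested. Ndufa4l2, a paralogue of Ndufa4 known to be induced by hypoxia, had counts in 7 libraries, up to 26.5 CPM.

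Cox4i2, the oxygen-responsive isoform known from lung and vascular mural cells, was patchy. It had counts in 17 libraries and reached 50.8 CPM and 6.49% of Cox4 counts. Control libraries held 7.10, 26.6, 19.7 and 11.1 CPM in ventral OS, against 0.707, 0, 0 and 1.14 CPM in dorsal OS. These groups did not overlap, with means of 16.1 ± 8.74 (SD) and 0.463 ± 0.563 CPM, but edgeR did not call the difference (adjusted p = 0.6187), whereas DESeq2 did (adjusted p = 0.04184). DESeq2 called 443 to 506 unchanged genes on simulated counts for dorsal OS between genotypes, and this comparison was not simulated. In mutants, dorsal libraries ranged from 0 to 50.8 CPM and ventral ones from 0 to 49.8 CPM, and overlapped.

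Summed over its genes, each complex took its largest share of all counts in the axons. Complex IV differed most. Its 14 genes held 0.543% ± 0.066 (SD, n = 4) of counts in control dorsal OS, 0.690% ± 0.0361 (n = 5) in mutant dorsal OS, 0.649% ± 0.0978 and 0.664% ± 0.046 in control and mutant ventral OS, and 0.944% ± 0.144 and 0.942% ± 0.0494 in control and mutant axons. No axon library fell below 0.760%, and among the dorsal libraries none exceeded 0.734%. In ventral OS the highest control library reached 0.781%, so that the control groups overlapped there. In mutants the ventral libraries reached at most 0.739% and no axon library fell below 0.877%. Within embryos, complex IV was higher in axons than in dorsal OS in 9 of 9, by 0.32 to 0.88 on the log2 scale (median 0.53), and than in ventral OS in 9 of 9, by 0.31 to 0.84 (median 0.47). The mean of the axon to dorsal difference was 0.52 over the batch A embryos and 0.66 over those of batch B.

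Complex I held 1.29% ± 0.15 of counts in control dorsal OS and 1.60% ± 0.228 in control axons, with 1.48% ± 0.0769 and 1.68% ± 0.166 in the mutants. Complex III held 0.399% ± 0.0688 in dorsal OS and 0.533% ± 0.123 in axons of controls, and 0.506% ± 0.0221 and 0.524% ± 0.0705 in mutants. Complex V held 0.802% ± 0.139 and 0.983% ± 0.160 in the same regions of controls, and 0.884% ± 0.0862 and 1.01% ± 0.0971 in mutants. Axons exceeded dorsal OS within 9 of 9 embryos for complexes I and V and within 7 of 9 for complex III. Axons exceeded ventral OS within 6 of 9 embryos for complex I, 7 of 9 for complex III and 8 of 9 for complex V. For complexes I, III and V the libraries of the stalk regions and of the axons overlapped in both genotypes. All 75 genes together held 3.03% ± 0.414 of counts in control dorsal OS, 3.56% ± 0.207 in mutant dorsal OS, 4.06% ± 0.596 in control axons and 4.15% ± 0.256 in mutant axons.

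**Figure D2:**
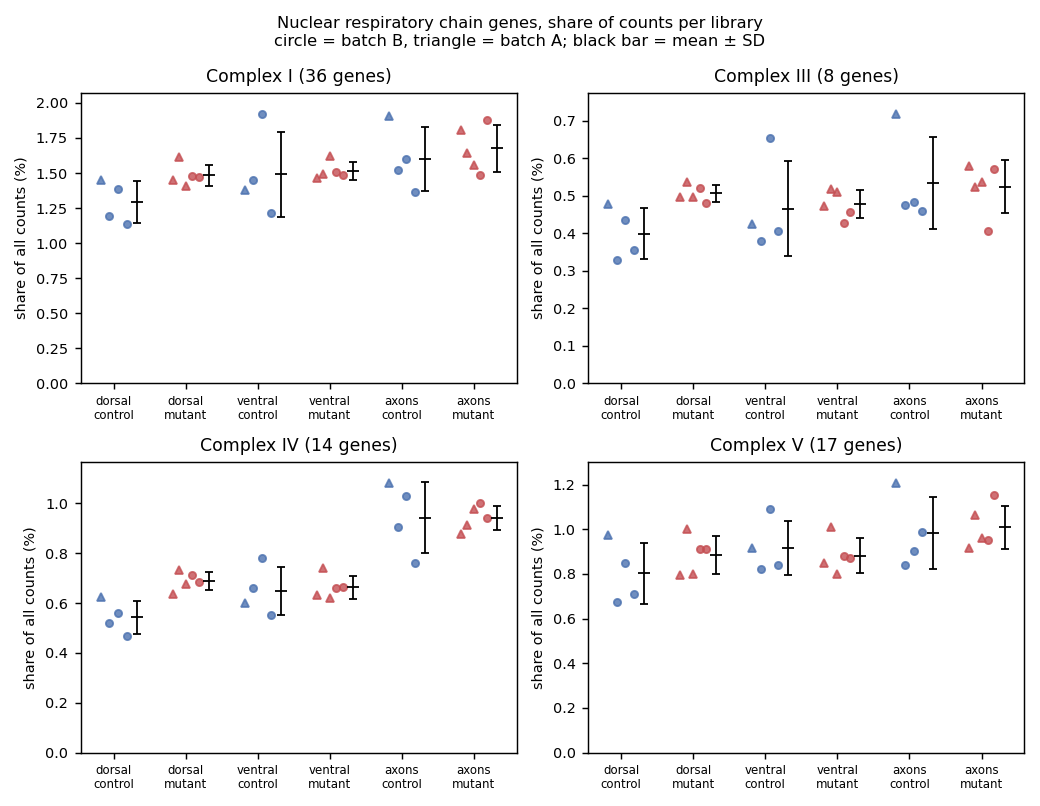
Share of all counts of a library (%, vertical axes) held by the nuclear genes of each complex in the 6 groups; each point is 1 library, and the mean and SD of each group are drawn. For complex IV every axon library lies at or above 0.760% and every dorsal library at or below 0.734%, whereas for complexes I, III and V the groups overlap.

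Gene by gene, controls and mutants were each compared between regions with edgeR's quasi-likelihood test, and a gene was called where the adjusted p was under 0.05 and the log2 fold change was over 0.58 in size. In total 8 of the 75 genes were called in a comparison with axons, all of them lower outside the axons. Complex IV contributed 5 of its 14 (Cox6a1, Cox4i1, Cox6b1, Cox6c and Cox8a), complex V contributed 2 (Atp5h and Atp5e), complex I 1 (Ndufa1) and complex III none. In controls, 1 gene was called between dorsal OS and axons (1.33%, against 0.0692% of all genes tested) and 0 between ventral OS and axons (0.0316% of all genes), where DESeq2, limma voom and limma trend also called 0. In mutants, 7 were called between dorsal OS and axons (9.33%, against 0.545% of all genes) and 4 between ventral OS and axons (5.33%, against 0.443%). These shares of all genes cover genes of every level and were not matched for abundance. The control and mutant comparisons with axons each use 1 set of axon libraries for both stalk regions, so they are not independent of each other.

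Cox6a1 (ENSMUSG00000041697.8, chr5:115345642-115348981, minus strand), the form found in most tissues of an accessory subunit of cytochrome c oxidase, was called in both genotypes. Its levels in control dorsal OS were 721, 851, 825 and 827 CPM, and in control axons 2234, 1892, 2309 and 1537 CPM. In mutants it stood at 1164, 1286, 1199, 943 and 1016 CPM in dorsal OS and at 1551, 2090, 2152, 2222 and 1416 CPM in axons. Every axon library lay above every dorsal library of either genotype. The log2 fold change, dorsal over axons, was -1.52 ± 0.20 (SE) in controls (adjusted p = 0.01264) and -0.93 ± 0.15 in mutants (adjusted p = 0.00539). Ventral OS held 1083, 1014, 1293 and 927 CPM in controls and 1067, 1551, 1528, 998 and 1079 CPM in mutants, and Cox6a1 was not called there against axons (log2 fold change -1.08 ± 0.21, adjusted p = 0.247, and -0.78 ± 0.17, adjusted p = 0.08). Within embryos the axons were higher than dorsal OS in 9 of 9, by 0.41 to 1.63 on the log2 CPM scale (median 0.89, batch means 0.90 and 1.05). The call in controls depended on single libraries: without 1 control dorsal library (any of the 4) or without control axon library 1 or 3 it was lost, with adjusted p from 0.0129 to 0.0875 over all such omissions, and with the embryo as a block the log2 fold change was -1.49 with an adjusted p of 0.1224. DESeq2 and limma trend called it too, and limma voom did not. With the block the mutant call remained (log2 fold change -0.91, adjusted p = 0.03937), as it did by limma trend, but it was lost by DESeq2 (-0.84, adjusted p = 0.05705) and by limma voom (-1.07, adjusted p = 0.9393).

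Cox4i1 (ENSMUSG00000031818.12, chr8:120668222-120674207, plus strand), the main form of the subunit through which ATP regulates the enzyme, was called between ventral OS and axons of mutants. It stood at 780, 743, 480, 608 and 796 CPM in mutant ventral OS and at 1065, 1212, 1289, 1313 and 1148 CPM in mutant axons. These groups were clearly apart, and the log2 fold change was -1.01 ± 0.16 (adjusted p = 0.007083), a call lost with the embryo as a block (adjusted p = 0.08454). The control libraries held 813, 841, 692 and 784 CPM in dorsal OS, 816, 1006, 862 and 694 CPM in ventral OS and 1567, 1434, 1641 and 1240 CPM in axons. The control axons again lay above every library of the other regions, yet the differences did not pass the adjustment (dorsal -1.12 ± 0.19, adjusted p = 0.0791; ventral -0.99 ± 0.20, adjusted p = 0.303). Mutant dorsal OS stood at 1058, 732, 974, 735 and 935 CPM, just below the lowest axon library, and was not called (-0.63 ± 0.14, adjusted p = 0.0652).

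Cox6b1 (ENSMUSG00000036751.7, chr7:30616861-30626151, minus strand) encodes a subunit of the intermembrane side that links the monomers of the enzyme. In mutants it stood at 1066, 1159, 1230, 1127 and 899 CPM in dorsal OS, 899.8, 1152, 975, 1283 and 906 CPM in ventral OS, and 1410, 1494, 1440, 2000 and 1840 CPM in axons. The axons were above both stalk regions without overlap, with log2 fold changes of -0.76 ± 0.14 (dorsal, adjusted p = 0.01315) and -0.84 ± 0.14 (ventral, adjusted p = 0.01141). In controls, dorsal library 1 (1206 CPM) lay above axon library 4 (1162 CPM), and the dorsal difference of -1.16 ± 0.27 was not called (adjusted p = 0.371). The other dorsal controls stood at 716, 629 and 749.5 CPM and the other axon controls at 1812, 1425 and 1952 CPM.

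Cox6c (ENSMUSG00000014313.15, chr15:35925886-35938246, minus strand) and Cox8a (ENSMUSG00000035885.5, chr19:7215153-7217616, minus strand) encode small membrane-spanning subunits. Cox6c stood at 475, 683, 610, 625 and 708 CPM in mutant dorsal OS, 652, 663, 671.5, 570 and 744 CPM in mutant ventral OS and 1001, 895.5, 1138, 876 and 1080 CPM in mutant axons. Axons were higher than either region, with log2 fold changes, stalk region over axons, of -0.87 ± 0.16 (dorsal, adjusted p = 0.02026) and -0.78 ± 0.15 (ventral, adjusted p = 0.02541). Cox8a stood at 519, 680, 600.3, 537 and 572 CPM in mutant dorsal OS and 965, 871, 973, 941 and 682 CPM in mutant axons, a log2 fold change of -0.78 ± 0.16 (adjusted p = 0.03329). Its lowest axon library exceeded its highest dorsal library only narrowly. In controls Cox6c (-0.63 ± 0.28) and Cox8a (-1.14 ± 0.27) were not called between dorsal OS and axons (adjusted p = 0.3858 for both), and the Cox8a controls measured 500.1, 415, 377 and 345 CPM in dorsal OS against 1126, 761, 621 and 630 CPM in axons.

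**Figure D3:**
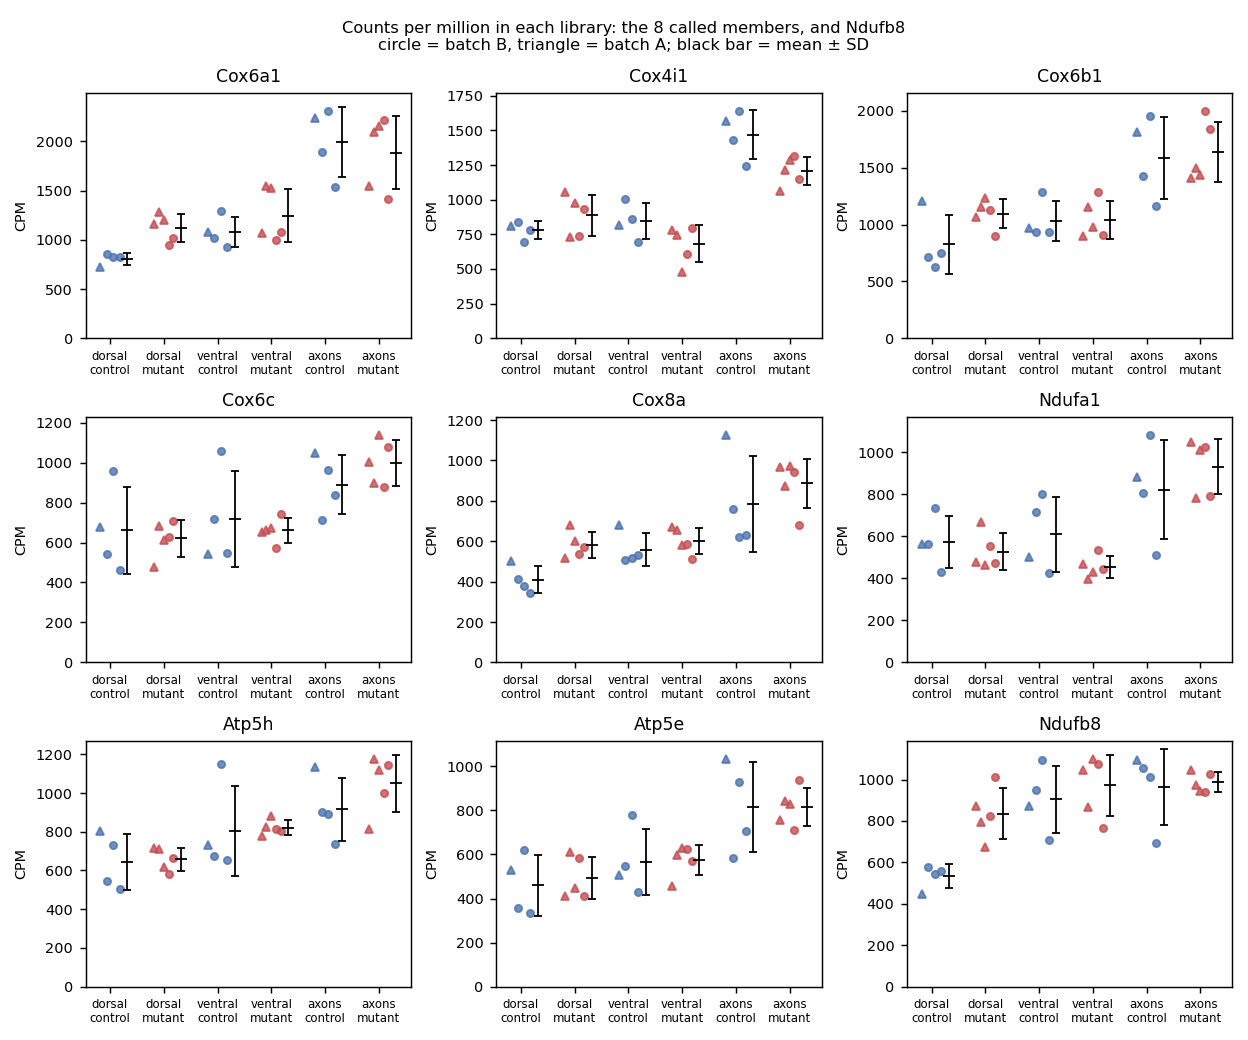
CPM in each library (vertical axes, 1 point per library) of the 8 genes called between a stalk region and the axons, and of Ndufb8, in the 6 groups with group means and SDs. The axon groups have the highest means for the called genes, with Cox6a1 at 1416 to 2309 CPM in axons and 721 to 1286 CPM in dorsal OS, whereas Ndufb8 is lowest in control dorsal OS.

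Ndufa1 (ENSMUSG00000016427.7, chrX:37187588-37191163, minus strand), an X-linked accessory subunit needed to assemble complex I, was the only complex I gene called. In mutants it stood at 477, 669, 463, 555 and 473 CPM in dorsal OS, 469, 398, 433, 538 and 445 CPM in ventral OS and 1048, 785, 1010, 1026 and 793 CPM in axons. The lowest mutant axon library lay above every mutant stalk library, with log2 fold changes of -0.997 ± 0.168 (dorsal, adjusted p = 0.00882) and -1.22 ± 0.15 (ventral, adjusted p = 0.001636, the smallest of any of the 75 genes). Control axons stood at 884, 806, 1083 and 513 CPM and overlapped with control dorsal OS (566, 564, 734 and 432 CPM), and the difference of -0.73 ± 0.29 was not called (adjusted p = 0.3858). With the embryo as a block the ventral call in mutants remained (-1.21, adjusted p = 0.009874).

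Both called genes of complex V specify subunits that join or stabilise the parts of ATP synthase. Atp5h (ENSMUSG00000034566.10, chr11:115415689-115419962, minus strand), the d subunit of the peripheral stalk, stood at 717, 709, 615.5, 583 and 662 CPM in mutant dorsal OS and 817, 1175, 1118, 1000 and 1147 CPM in mutant axons (-0.86 ± 0.16, adjusted p = 0.01395). Atp5e (ENSMUSG00000016252.7, chr2:174461072-174464105, minus strand), the ε subunit of the central stalk, stood at 412, 611, 448, 585 and 411 CPM in mutant dorsal OS and 759, 842.5, 830, 711 and 939 CPM in mutant axons (-0.91 ± 0.18, adjusted p = 0.03401). Neither pair of groups overlapped. In controls the differences of -0.70 ± 0.26 and -1.02 ± 0.31 were not called (adjusted p = 0.3858 for both).

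Within embryos, all 8 called genes had more CPM in axons than in dorsal OS in 9 of 9 embryos, with medians on the log2 CPM scale from 0.61 (Cox6c) to 0.89 (Cox6a1). Against ventral OS, Cox6a1, Cox4i1, Cox6b1, Cox8a, Ndufa1 and Atp5e were higher in axons in 9 of 9 embryos, Atp5h in 8 and Cox6c in 7. The same libraries are behind these ratios and the tests above. With the embryo as a block, 1 gene stayed called between dorsal OS and axons in mutants (Cox6a1), 3 between ventral OS and axons in mutants (Ndufa1, Cox6b1 and Cox6c) and 0 in controls. The adjusted p of the other 6 genes called in mutant dorsal OS was then between 0.107 and 0.184.

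Single libraries also decided some of these calls. Each of the 10 mutant libraries of a comparison was left out in turn. Cox6a1 and Ndufa1 kept the call between dorsal OS and axons each time, with adjusted p up to 0.0312 and 0.0464. Atp5h lost it without mutant dorsal library 3, 4 or 5 (adjusted p up to 0.0552), Cox6b1 without dorsal library 1, 4 or 5 (up to 0.0656), and Cox6c without dorsal library 1, 3 or 4 or axon library 3 or 5 (up to 0.0656). Cox8a kept it only without dorsal library 2 or axon library 5 (up to 0.134 otherwise), and Atp5e only without dorsal library 2 or axon library 1 or 4 (up to 0.126 otherwise). Between ventral OS and axons, Ndufa1, Cox4i1 and Cox6b1 kept the call each time (adjusted p up to 0.00822, 0.0295 and 0.0435), and Cox6c kept it only without axon library 2 or 4 (up to 0.0852 otherwise).

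A wider set of subunits, most of them not called, was lower outside the axons. Between dorsal OS and axons of controls, 26 of the 75 genes were lower in dorsal OS at an unadjusted p under 0.05 (34.7%, against 3.13% of all genes tested), and 8 were lower in every dorsal than in any axon library (10.7%, against 1.5%). Between ventral OS and axons of controls the counts were 8 (10.7%, against 2.39%) and 2 (2.67%, against 1.11%). In mutants, 21 were lower in dorsal OS than in axons (28%, against 4.33%), with 11 genes not overlapping (14.7%, against 1.06%), and 27 were lower in ventral OS (36%, against 4.31%), with 7 genes not overlapping (9.33%, against 0.842%). By complex, the lower genes in control dorsal OS were 10 of 36 in complex I, 3 of 8 in complex III, 7 of 14 in complex IV and 6 of 17 in complex V, and in mutant ventral OS 9, 4, 8 and 6.

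Abundant genes reach small p-values more readily, so the counts at an unadjusted p under 0.05 were also taken over genes with a mean above 100 CPM. The counts of genes not overlapping, above and below, were not matched for abundance. The limit of 100 CPM left 63 of the 75 genes and 2108 genes in all. Of those 63, 26 were lower in dorsal OS than in axons in controls (41.3%, against 13.4%), 8 in ventral OS (12.7%, against 7.35%), 21 in mutant dorsal OS (33.3%, against 13.4%) and 27 in mutant ventral OS (42.9%, against 11.8%). Few genes went the other way: in mutants 2 of the 75 were higher in dorsal OS (2.67%, against 19.1% of all genes) and 1 in ventral OS (1.33%, against 17.5%). These shares of all genes cover genes of every level, and shares over genes above 100 CPM are not given for this direction. The higher genes were Ndufa4l2 in both and Cox7a1 in dorsal OS, whose counts lie at or near 0 in most libraries, so that no fold change is given.

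The median log2 fold change, dorsal over axons, was -0.53 in controls (66 of 75 genes lower) and -0.31 in mutants (59 of 75 lower), while the median of all genes tested was 0.29 and 0.33. Over genes with a mean above 100 CPM the medians were -0.25 and -0.13. In controls the medians by complex were -0.46 (I), -0.58 (III), -0.92 (IV) and -0.53 (V). For ventral OS over axons the 75 genes had medians of -0.30 in controls and -0.28 in mutants, and the complex IV genes -0.48 and -0.61. The catalytic subunits named above went in both directions. In controls the log2 fold changes of dorsal OS over axons were 1.23 ± 1.44 for Ndufs1, 0.36 ± 0.50 for Ndufv1, 0.23 ± 0.34 for Uqcrfs1, -0.12 ± 0.26 for Atp5a1 and -0.58 ± 0.26 for Atp5b, of which only Atp5b had an unadjusted p under 0.05 (adjusted p = 0.3858).

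**Figure D4:**
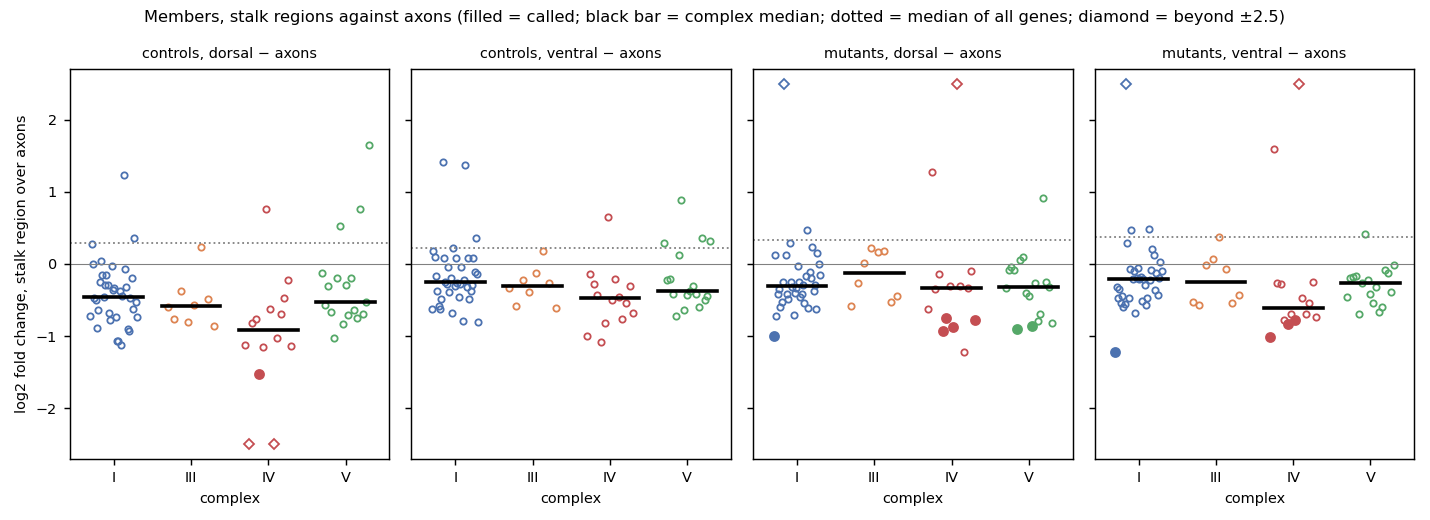
Log2 fold changes of dorsal and of ventral OS over axons (vertical axes) in controls and in mutants, with 1 point per gene grouped by complex on the horizontal axis; values below 0 mean higher in axons, filled points are called genes, bars are medians of a complex, the dotted line is the median of all genes, and diamonds are genes with libraries at 0 whose value lies off the axis. Complex IV in control dorsal OS lies lowest, with a median of -0.92, and the median of the 75 genes is -0.53 there, against 0.29 for all genes tested.

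Other abundant transcripts were also higher in axons. Cytosolic ribosomal protein genes had a median log2 fold change, dorsal over axons, of -0.85 in controls, and their share of counts was higher in axons than in either stalk region within 9 of 9 embryos. The genes of mitochondrial DNA, whose products are built into the same complexes, had a median of -0.93 in controls. Only 8 of the 13 protein-coding genes passed the filter, and mt-Co2, mt-Co3, mt-Atp6, mt-Atp8 and mt-Nd4l were listed at or near 0 in every library although every cell uses them, so the following shares cover 8 genes. They held 2.77% of counts in control and 3.28% in mutant dorsal OS, 2.77% and 2.71% in ventral OS, and 5.09% and 4.99% in axons. Of these 8, mt-Co1, the catalytic core of complex IV, was called between mutant dorsal OS and axons (-1.08 ± 0.14, adjusted p = 0.001004), and 6 were called between mutant ventral OS and axons. Markers of other tissue also differed between stalk regions and axons, in both genotypes. The mesenchymal markers summed to 629 to 2305 CPM in mutant axons and 53.2 to 395 CPM in mutant stalk without overlap, and 5 of 10 were lower in dorsal and 7 of 10 in ventral OS than in axons at an unadjusted p under 0.05. Of 8 erythroid markers 2 and 5 were lower likewise, with sums of 609 to 33049 CPM in mutant axons and 2.27 to 7270 CPM in mutant stalk. In mutant dorsal OS 3 of 11 progenitor markers were called lower and 2 of 9 melanin genes higher than in axons. In control dorsal OS 1 of 11 progenitor markers and 1 of 13 neuronal markers tested were called lower than in axons. At an unadjusted p under 0.05, 5 of 8 melanin genes and 2 of 10 mesenchymal markers were higher in control dorsal OS, and 0 of either were lower. The part of these markers, of the neuronal markers, of the fewer genes detected and of the ribosomal protein genes in the axon differences of the subunit genes was not tested.

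Between dorsal and ventral OS of the same genotype edgeR called none of the 75 genes (0 in controls, with 0% of all genes called, and 0 in mutants, with 0% of all genes). At an unadjusted p under 0.05, controls had 2 genes lower in dorsal OS (2.67%, against 3.34%) and 0 higher (0%, against 3.4%), and mutants had 1 lower (1.33%, against 5.89%) and 1 higher (1.33%, against 6.53%). DESeq2 called 1 gene in controls, Cox4i2 as above, and 0 in mutants, and limma voom and limma trend called 0 in both. The pair in controls was Ndufb8 (-0.79 ± 0.22) and Cox6a1 (-0.45 ± 0.20, adjusted p = 0.6152 for both), and 6 genes lay lower in every dorsal library than in any ventral one (8%, against 1.39% of all genes). These were Ndufb8, Ndufs8, Cox4i2, Cox5a, Cox6a1 and Cox8a. In mutants the pair was Atp5h (-0.30), with dorsal libraries at 583 to 717 CPM below ventral ones at 778 to 883 CPM, and Cox4i1 (0.40), whose groups overlapped (adjusted p = 0.3815 for both).

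Between mutants and controls edgeR called no subunit gene in any region. In dorsal OS 0 of the 75 were called (0.0124% of all genes), in ventral OS 0 (0%) and in axons 0 (0%). DESeq2 called 1 in dorsal OS and 0 in the other regions, limma voom 1 in dorsal OS, 1 in axons and 0 in ventral OS, and limma trend 0 in each. On simulated counts for dorsal OS edgeR called 0.5% of genes changed 2-fold and 12% of those changed 4-fold. A count of 0 therefore does not exclude changes of that size. At an unadjusted p under 0.05, 5 genes were higher in mutant than in control dorsal OS (6.67%, against 2.68% of all genes) and 0 lower (0%, against 2.68%). These were Ndufb8, Ndufb7, Cox7a2, Cox6a1 and Cox8a. Over genes above 100 CPM the 5 made up 7.94%, against 5.88%. In ventral OS none was higher or lower at that level (0 of 75 each, against 1.28% and 1.91%), and the smallest p belonged to Atp5b (-0.35 ± 0.19) and Atp5a1 (-0.33 ± 0.19, adjusted p = 0.9993 for both). In axons none was higher (0%, against 0.861%) and 2 were lower (2.67%, against 2.68%), Uqcrc1 and Ndufs4. The axon count was therefore at the level of all genes.

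Ndufb8 (ENSMUSG00000025204.10, chr19:44548572-44555440, minus strand) encodes an accessory subunit of the membrane arm of complex I whose protein is lost when the complex fails to assemble. It stood at 449, 577, 546 and 559 CPM in control dorsal OS and at 870, 797, 675, 822 and 1014 CPM in mutant dorsal OS. All mutants were above all controls, also within batch A (449 against a mean of 780 CPM) and batch B (means of 561 and 918 CPM). The log2 fold change was 0.77 ± 0.18, with an adjusted p of 0.533 over all genes tested. DESeq2 (0.72 ± 0.18, adjusted p = 0.002379) and limma voom (0.76, adjusted p = 0.0197) called it, and limma trend did not. On simulated counts for this comparison DESeq2 also called 443 to 506 unchanged genes, and limma voom 8 to 21. Those counts cover genes of every level, and the rate for genes as abundant as Ndufb8 is not given. Elsewhere its levels did not separate the genotypes: 905 ± 161 CPM (SD) in control and 972 ± 146 CPM in mutant ventral OS, and 963 ± 184 and 987 ± 49.1 CPM in axons, with log2 fold changes of 0.06 ± 0.21 and -0.00 ± 0.19. Control dorsal OS was thus the low group.

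Of the other dorsal genes, Ndufb7, an accessory subunit of the same arm, stood at 597, 488, 348 and 368 CPM in controls and 833, 618, 787, 634 and 632 CPM in mutants without overlap (0.55 ± 0.20, adjusted p = 0.9176). Cox7a2 stood at 542, 333, 524 and 318 CPM in controls and 480, 804, 668, 889.5 and 730 CPM in mutants, and overlapped (0.76 ± 0.27, adjusted p = 0.9176). By group means, its relative Cox7a2l made up 29.8% of the summed Cox7a CPM in controls and 14.2% in mutants. Cox7a2l stood at 183 ± 44.8 CPM in controls and 119 ± 43.5 CPM in mutants (log2 fold change -0.49 ± 0.41, not called). Whether Cox7a2l reads were lost to its near-identical copy was not tested. Cox6a1 was 0.45 ± 0.17 higher (adjusted p = 0.9176), with 721 CPM in the batch A control against a mutant mean of 1216 CPM, and means of 835 against 979 CPM in batch B. Cox8a was 0.46 ± 0.20 higher (adjusted p = 0.9176), and neither Cox6a1 nor Cox8a overlapped. In all, 4 genes did not overlap and were higher in mutants (5.33%, against 1.31% of all genes). The median log2 fold change of the 75 genes was 0.21 in dorsal OS (59 higher), against -0.04 for all genes and 0.14 for genes above 100 CPM. By complex the medians were 0.22 (I), 0.34 (III), 0.39 (IV) and 0.14 (V). In the same comparison the sums of the mesenchymal and progenitor markers were lower in all mutants than in any control, with the ranges given above, and 4 of the 8 mitochondrial DNA genes (mt-Nd1, mt-Nd4, mt-Nd5 and mt-Cytb) were higher at an unadjusted p under 0.05. The part of these markers in the subunit differences was not tested.

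In ventral OS and in axons the medians were 0.03 (41 of 75 higher) and 0.02 (39 higher), against -0.08 and -0.29 for all genes. In axons, Uqcrc1 (ENSMUSG00000025651.14, chr9:108936633-108949623, plus strand), a core subunit of complex III on its matrix side, stood at 1216, 759, 576 and 935 CPM in controls and at 878, 730, 837, 318 and 472 CPM in mutants. These overlapped, and the log2 fold change was -0.79 ± 0.22 (adjusted p = 0.8802), with an adjusted p of 0.02954 by voom. Ndufs4, an accessory subunit of complex I that is mutated in Leigh syndrome, stood at 598, 374.5, 347 and 473 CPM in controls and 505, 520, 371, 152 and 297 CPM in mutants (-0.65 ± 0.29, adjusted p = 0.8802). For both genes the lowest values were those of mutant axon libraries 4 and 5, both of batch B.

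**Figure D5:**
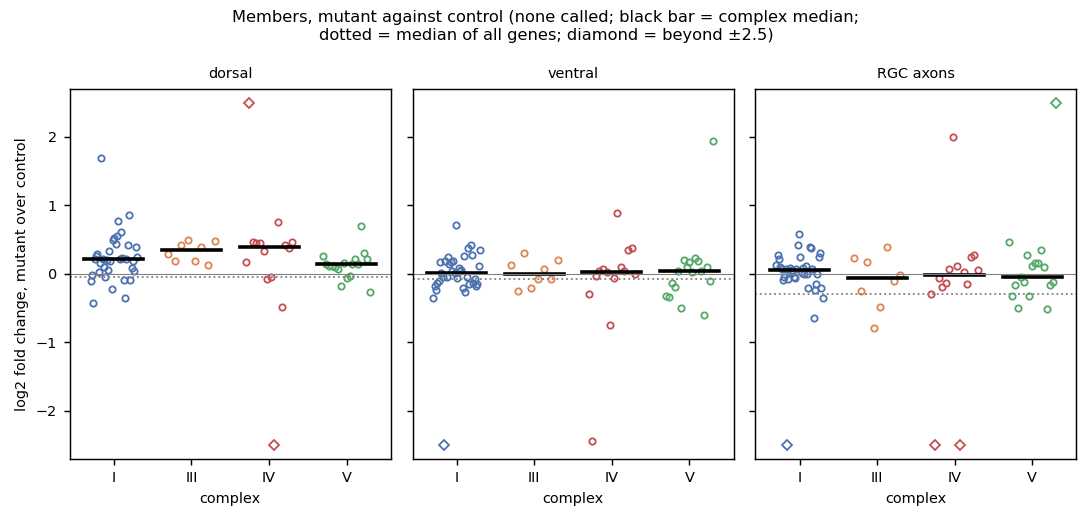
Log2 fold changes of mutant over control (vertical axes) in dorsal OS, ventral OS and axons, 1 point per gene by complex on the horizontal axis. The dorsal medians lie between 0.14 (complex V) and 0.39 (complex IV), while over all 75 genes the medians are 0.03 in ventral OS and 0.02 in axons, and edgeR called no gene in any region.

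Whether the genotype difference itself changed with the region was tested as an interaction over all 27 libraries. None of the 75 genes was called: 0 for dorsal against ventral OS (0.00612% of all genes), 0 for dorsal OS against axons (0.0245%) and 0 for ventral OS against axons (0.00612%). Apart from 1 gene called by DESeq2 between dorsal OS and axons, DESeq2, limma voom and limma trend called 0 as well. At an unadjusted p under 0.05, the mutant effect was higher in dorsal than in ventral OS for 4 genes (5.33%, against 3.66%) and lower for 0 (0%, against 3.72%). The 4 were Ndufb8 (0.57 ± 0.25, adjusted p = 0.5698), Cox7a2, Cox4i1 and Ndufb7. It was higher in dorsal OS than in axons for 7 genes (9.33%, against 7.65%), Ndufa4l2 with its few counts among them, and lower for 1 (1.33%, against 4.02%), with the smallest p for Uqcrc1 (1.16 ± 0.40, adjusted p = 0.2334) and Ndufb8 (0.66 ± 0.25, adjusted p = 0.2636). The lower one was Ndufa11, a membrane-arm subunit of complex I (-0.70 ± 0.29, adjusted p = 0.3219), which DESeq2 called (-0.80, adjusted p = 0.02403). Between ventral OS and axons 0 were higher (0%, against 6.86%) and 1 was lower (1.33%, against 3.5%), Atp5a1 (-0.75 ± 0.34, adjusted p = 0.4283). For Cox6a1 the smaller axon to dorsal difference of mutants had an interaction of 0.58 ± 0.24 (adjusted p = 0.3159). The median interaction between dorsal and ventral OS was 0.23 (62 of 75 above 0), against 0.03 for all genes, and for complex IV it was 0.43 (13 of 14 above 0). The share of all genes above 0 and the median over genes above 100 CPM are not given here.

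Genes of the same pathway outside the chosen symbols were read from lists. None of the 4 complex II genes, of the assembly factors of complexes I (15), III (6), IV (17) and V (4), of 11 regulators of mitochondrial biogenesis or of the glycolytic genes was called in any of the 12 comparisons by edgeR. At an unadjusted p under 0.05, 4 of 19 glycolytic genes (Slc2a1, Aldoa, Aldoc and Eno1) were higher in mutant than in control dorsal OS, where 2.68% of all genes were. Among genes above 100 CPM on average 5.88% were, and Aldoc had counts in only 5 of the 27 libraries. Of these lists, no other had over 2 genes at an unadjusted p under 0.05 in one direction in any comparison. Other tools were not summarised for these lists. The assembly factors of complex IV summed to 1060 to 1356 CPM in control and 1441 to 1705 CPM in mutant dorsal OS, and to 1160 to 1385 and 1490 to 1774 CPM in ventral OS, without overlap, while in axons the genotypes overlapped. Gene by gene, 0 of the 17 passed an unadjusted p under 0.05 between genotypes in dorsal OS, and 1 was higher in mutant ventral OS. The sums themselves were not tested. Cycs, which encodes cytochrome c, the carrier between complexes III and IV, was 1.20 ± 0.32 higher on the log2 scale in mutant than in control dorsal OS with an unadjusted p under 0.05, and was not called (adjusted p = 0.7991). Cyc1, the cytochrome c1 subunit of complex III whose symbol lies outside the rule, had log2 fold changes of -0.98 ± 0.35 for dorsal OS and -0.75 ± 0.32 for ventral OS over axons in controls, and was not called (adjusted p = 0.3858 and 0.4528).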

How the data were processed

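Laser-captured tissue of E14 embryos was reverse transcribed, amplified by PCR without molecular identifiers, and sequenced as single-end reads of 150 bases. The authors aligned the reads to mm10 with STAR and counted them per gene with HTSeq through Seq2Science at default settings, and deposited the raw counts of 27 libraries. Versions, strand setting and annotation release are not given in the sources used here. Identifiers were named through the GENCODE M21 annotation of mm10, which matched 55227 of 55487 (the 260 others held 0.00287% of counts). No library pair held identical values.

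Groups were taken from the library titles, with 4 controls and 5 mutants per region. Genes that exceeded 10 counts in 3 or more libraries were fitted with edgeR (version 4.0.16; TMM scaling, robust quasi-likelihood F-test, two-sided) under R 4.3.3, with batch as a term in genotype comparisons and in the interactions, and none in regional comparisons. P-values were adjusted by Benjamini-Hochberg over all genes tested. CPM and shares use total counts, whereas fold changes are TMM-scaled. Counting error alone leaves up to 3 counts (0.0883 to 0.2752 CPM) behind a count of 0. Regions of an embryo share its number and come from the same animal, so the pairing is real for regional comparisons; correlations of deviations between regions of an embryo were 0.00182 to 0.148. Each library is from a separate embryo or region. P-values of genotype comparisons within a region measure the spread between embryos. Regional and interaction tests, except those with the embryo as a block, had no embryo term and treated regions of an embryo as independent libraries. Their p-values therefore do not measure the spread between embryos alone.

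The genes, lists and thresholds were chosen with earlier results of these data known. Named were all called genes, the 2 smallest p per comparison, the extremes of level per complex, isoform families and catalytic subunits, and any other gene was named after its value was seen. Alternatives were DESeq2 1.42.0, limma 3.58.1 (voom, and trend on log2 CPM with a prior count of 2), other scaling, filters, blocks and omissions. On simulated counts for dorsal OS with 200 changed genes, edgeR called 0.5% of genes changed 2-fold (of 16040 tested), 12% of those changed 4-fold (of 16039) and 35.5% of those changed 16-fold (of 16032), with 3 to 4 unchanged genes called. DESeq2 called 3.5%, 29.5% and 72.5%, with 443 to 506 unchanged genes called. Near-identical copies were sought with minimap2 2.31. Values of 1 catalytic subunit are not reported here. The E12 tissue of the study and the protein sequences were not used here.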

Additional observations from a re-analysis of the deposited data

Results flagged for a closer look

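Of 126 groups of values checked, 10 held a library far from the others of its group by Dixon's criterion, and chance flags about 1 in 20 groups. Control ventral library 3 stood apart for Atp5h (1150 CPM, the others 656 to 732), for Cox6b1 (1290 CPM, the others 932 to 972) and for the complex III share (0.655%, the others 0.379 to 0.424%). Control axon library 1 stood apart for the complex III share (0.717%, the others 0.459 to 0.482%) and control ventral library 1 for Cox8a (679 CPM, the others 508 to 529). Cox4i2 reached 50.8 CPM in mutant dorsal library 2 (the others 0 to 7.72) and 23.5 CPM in mutant axon library 4, while the other mutant axon libraries were at 0. Ndufa11 reached 429 CPM in mutant dorsal library 5 (the others 305 to 324) and 597 CPM in mutant axon library 2 (the others 434 to 478). The complex I share was 1.62% in mutant ventral library 3 (the others at most 1.505%). None of these libraries was left out of the values above, and what sets them apart was not tested.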

How the results depend on the processing

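No called value changed direction under any alternative run. Of 195 counts of called genes recomputed, 167 stayed within 1.5 times the main count and 28 moved; of 195 medians, 6 moved by more than the spread between libraries, and of 509 values of named genes, 62 lost and 11 gained a call. Limma trend was added after the data were seen, because limma voom's weights for abundant genes differed by up to 903600 times within a gene (Cox6a1, mutant dorsal OS and axons). The cause of the other shifts was not tested. Between genotypes in dorsal OS, DESeq2 and voom each called 1 gene (Ndufb8), and in axons voom called 1 (Uqcrc1). Between dorsal and ventral OS of controls DESeq2 called 1. Between dorsal OS and axons of controls the count of 1 became 3 without a count filter, 2 by DESeq2, 2 by limma trend, 0 by voom and 7 when all 27 libraries were fitted together, and between ventral OS and axons 2 without a filter and 2 in the fit of all 27. In mutants, where edgeR called 7 genes between dorsal OS and axons, DESeq2 called 4 (Cox6c, Atp5e, Ndufa1 and Atp5h, all among the 7), voom called 4 (Atp5e of the 7, with Ndufa11, Cox4i1 and Atp5j2) and limma trend 9 (the 7, Cox4i1 and Atp5j2), and the 4 of ventral OS against axons became 9 by voom and 7 by limma trend. DESeq2 called 1 interaction between dorsal OS and axons. With the embryo as a replicate block, which pairs regions of the same animal, the count was 0 in controls and 1 in mutants for dorsal OS against axons. The title number as a replicate block in the genotype comparisons, where it pairs different embryos, changed no call (0 genes in each region). Leaving out 1 library gave 0 to 1 called genes in controls (dorsal OS against axons) and 2 to 7 in mutants, with 3 without mutant dorsal library 1, 3 or 5 and 2 without library 4. Over the same omissions the medians ranged from -0.15 (without mutant axon library 5) to 0.14 (without control axon library 1) for genotype in axons, which was 0.17 in batch B alone. They ranged from -0.35 to -0.0796 (without control ventral library 3) for dorsal over ventral OS of controls. For dorsal OS over axons of controls they ranged from -0.65 to -0.37 (without control axon library 1), and for ventral OS over axons from -0.46 (without control ventral library 3) to -0.21. The median interaction between ventral OS and axons ranged from -0.15 (without control embryo 1) to 0.16. Without the counts of mitochondrial DNA genes the complex IV share in mutant axons was 0.992%. Among the genes called in mutant dorsal OS against axons, Cox6a1 and Ndufa1 were called under every omission of a library, while Cox8a lost its call in 8 and Atp5e in 7 of 10.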
